A study of Mus musculus with 3 samples.

Results

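The genes described here are 10 genes of the negative limb of the mouse circadian clock and its output: Bhlhe40, Bhlhe41, Per1, Per2, Per3, Cry1, Cry2, Nr1d1, Nr1d2 and Dbp. They were found by symbol among the 52661 genes of each table, and all 10 were present under the versioned identifier of GENCODE M21. The set was chosen by measured level, since Bhlhe41 had been seen among the genes with most reads, so the level of Bhlhe41 is given as a description. Expression was measured by bulk RNA sequencing of 3 sorted populations of mouse mammary cells, 1 library each, which the labels call PROCR+ (positive for the protein C receptor) mammary epithelial cells. All were sorted as EpCAM+ and CD49f high. The CD36+ library is CD36+ PDPN- and has Cdh5+ Cd36+ in its title. The double-negative library is CD36- PDPN-, with Cdh5+ Cd36- in its title. The PDPN+ library is CD36- PDPN+, with Cdh5- in its title. The sources used here do not give strain, age, genotype, the number of animals pooled or the hour of collection.

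The circadian clock is a feedback loop of transcription that runs in most cells. The activators CLOCK and BMAL1 (the product of Arntl) bind E-boxes and switch on the Per and Cry genes, whose proteins then inhibit the activators. The nuclear receptors NR1D1 and NR1D2 repress Arntl, and BHLHE40 and BHLHE41 occupy E-boxes as repressors. DBP, which is under E-box control, activates genes with D-boxes.

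Total counts were 67675778 in CD36+ cells, 51138993 in double-negative cells and 63871266 in PDPN+ cells. The libraries differed in cell type markers. The 13 endothelial markers summed to 41880.5 CPM (counts scaled to library size with TMM factors) in CD36+ cells, 31209 CPM in double-negative cells and 450.5 CPM in PDPN+ cells. The 10 basal epithelial markers summed to 98.4, 245 and 6024 CPM in the same order. The 8 immune markers summed to 15.6, 1.66 and 7.34 CPM, and no immune marker reached 10 CPM in any library. The 6 fibroblast markers summed to 110.5, 60.98 and 617 CPM, the 5 pericyte markers to 259, 189 and 68.4 CPM, and the 10 luminal markers to 585.5, 508 and 675 CPM. Most of the pericyte sum was Rgs5, at 241, 164 and 51.9 CPM. None of the other pericyte markers shared its order, with Pdgfrb at 13.6, 0.0594 and 3.62 CPM and Abcc9 at 0.845, 25.0 and 5.22 CPM. The luminal markers were split. Krt8, at 122, 84.4 and 326 CPM, and Krt18, at 131, 145 and 284 CPM, were highest in PDPN+ cells. Kit, at 130, 108 and 7.36 CPM, and Csn3, at 31.7, 16.7 and 0.257 CPM, were lowest there. At 2-fold with at least 10 CPM, 6 of the 10 luminal markers were higher and 2 lower in CD36+ than in PDPN+ cells. The shares of all genes were 25.3% and 28.1%. The labels call all 3 populations epithelial, while in CD36+ and double-negative cells the endothelial sum exceeded the basal and luminal sums. All 13 endothelial markers were at least 4-fold higher in CD36+ and in double-negative than in PDPN+ cells. Over all genes with at least 10 CPM in either library, 15.1% and 15.0% were. Of the 10 basal markers, 9 were at least 4-fold lower in CD36+ and 10 in double-negative than in PDPN+ cells, beside 17.6% and 19.3% of all genes. The exception was Itgb4, at 16.1 CPM in CD36+ and 13.4 CPM in PDPN+ cells. The part of cell type in the values that follow was not tested. In bulk RNA, fewer cells of a type and less RNA per cell cannot be told apart. With 1 library a population, no test between populations was possible, and every value given for a population is that of its 1 library. Folds carry 95% exact (Clopper-Pearson) intervals that cover counting error only.

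Bhlhe41 encodes a basic helix-loop-helix repressor, also called DEC2. It lies on the minus strand of chromosome 6 of mm10, from 145858243 to 145865558. It had 506027 counts in CD36+ cells, 321635 in double-negative cells and 412082 in PDPN+ cells, which were 0.748%, 0.629% and 0.645% of all counts. Per length, its level was 1581 TPM (the deposited level, corrected for transcript length) in CD36+ cells, 1293 TPM in double-negative cells and 1447 TPM in PDPN+ cells. Bhlhe41 was abundant in all 3 libraries, although endothelial and basal markers set those libraries far apart.

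How abundant Bhlhe41 was depended on the scale. By reads, as CPM, it was number 5 of 21773 nuclear protein-coding genes in CD36+ cells, number 4 in double-negative cells and number 2 in PDPN+ cells. By TPM, which corrects for transcript length, it was number 57, number 73 and number 57. Counts and TPM together implied an effective length of 5942, 5954 and 5947 bases for Bhlhe41. With the median difference between full and effective length in each library added, that gave 6133 bases in each, the length of its longest annotated transcript, Bhlhe41-201. The 2 other annotated transcripts have 744 and 690 bases. The high read count of Bhlhe41 was thus assigned to a transcript that is long, and its rank per length was lower than its rank by reads in every library. Exons of Bhlhe41 share 1280 bases with Gm43909, an annotated gene on the opposite strand that had 0 counts in CD36+ cells, 0 in double-negative cells and 2 in PDPN+ cells.

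**Figure D1:**
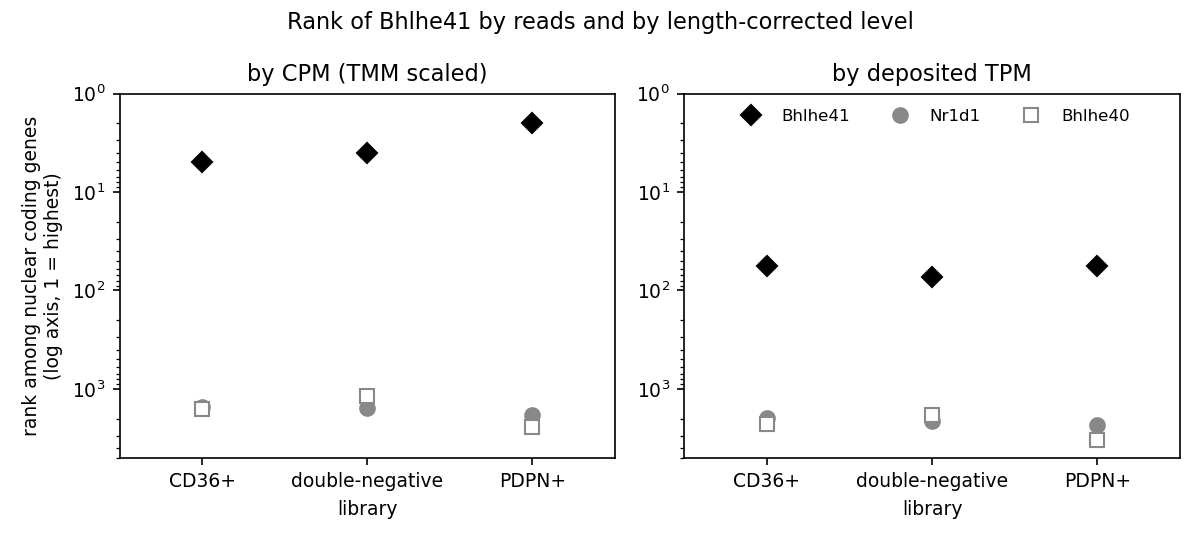
Rank of Bhlhe41, Nr1d1 and Bhlhe40 among nuclear protein-coding genes (vertical log axis, 1 is highest) in each library, by CPM on the left and by deposited TPM on the right. Bhlhe41 moves from ranks 5, 4 and 2 by reads to ranks 57, 73 and 57 by TPM in the CD36+, double-negative and PDPN+ libraries.

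The RefSeq promoter table (GRCm38.p6) holds a window for 8 of the 10 genes, from 250 bases before to 50 after a start site. The Bhlhe41 window is shown because this is the most abundant gene of the set, in the direction of the gene, with its E-box in capitals. It is chr6:145865371-145865670, minus strand, and its RefSeq start site, at 145865420, lies inside the GENCODE gene.
Bhlhe41: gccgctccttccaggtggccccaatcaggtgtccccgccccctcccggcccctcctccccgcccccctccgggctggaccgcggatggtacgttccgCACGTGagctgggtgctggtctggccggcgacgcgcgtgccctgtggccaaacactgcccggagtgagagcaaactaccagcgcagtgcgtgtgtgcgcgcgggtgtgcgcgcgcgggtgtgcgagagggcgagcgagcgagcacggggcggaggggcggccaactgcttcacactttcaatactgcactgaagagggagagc

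The E-box searched was CACGTG, which reads the same on both strands. It was found in 7.15% of all 32851 promoter windows of 300 bases, and in 3 of the 9 windows of the set. In the Bhlhe41 window it starts 153 bases before the start site. The other windows with it belong to Per1 and Cry1, shown here as 40 bases around the E-box because both genes encode repressors of E-box activation. The Per1 stretch is chr11:69098766-69098805 (plus strand) and the Cry1 stretch chr10:85185092-85185131 (minus strand).
Per1: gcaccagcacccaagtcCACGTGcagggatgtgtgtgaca
Cry1: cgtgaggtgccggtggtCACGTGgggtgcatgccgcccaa
The E-boxes start 166 bases before the first of the 2 Per1 start sites and 60 bases before that of Cry1. The variant CACGTT, searched on both strands and without overlap with CACGTG in these windows, was in 4.68% of all windows and in those of Cry1, Cry2 and Nr1d1. The D-box, searched as TTATGTAA and TTACGTAA on both strands, was in 1.06% of all windows, and of the set in that of Per3 alone. The ROR element, searched as TAGGTCA and TGGGTCA on both strands, was in 6.45% of all windows and in 0 of the 9. A match is a description of the letters and says nothing of binding.

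Per3 is shown whole because its window carries 2 D-boxes, the element that DBP binds, in capitals. They start 205 and 158 bases before the start site. The window is chr4:151044616-151044915, minus strand.
Per3: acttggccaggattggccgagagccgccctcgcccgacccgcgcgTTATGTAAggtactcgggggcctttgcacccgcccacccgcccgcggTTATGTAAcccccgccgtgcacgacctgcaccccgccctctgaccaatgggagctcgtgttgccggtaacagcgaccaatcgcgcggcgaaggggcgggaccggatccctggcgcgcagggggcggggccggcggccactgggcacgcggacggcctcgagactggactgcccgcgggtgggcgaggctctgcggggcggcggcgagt

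Bhlhe41 differed by less than 2-fold between the libraries. It stood at 8548 CPM in CD36+ cells, 6370.3 CPM in double-negative cells and 5572 CPM in PDPN+ cells. It was 1.53-fold higher in CD36+ than in PDPN+ cells by CPM (1.53 to 1.54) and 1.09-fold by TPM. The deposited TPM carries no TMM factor, so ratios by TPM differ from ratios by CPM in scaling as well as in length correction. Between the double-negative and PDPN+ libraries the direction depended on the scaling, with a ratio of 1.14 by CPM (1.14 to 1.15) and 0.894 by TPM, and it also turned under scaling by total counts. It was 1.34-fold higher in CD36+ than in double-negative cells (1.34 to 1.35). These intervals are narrow because the counts are large, and the choice of scaling moved the values further than they do.

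Genes with the most similar profile were taken from 459 other nuclear protein-coding genes that reached 500 CPM somewhere. Likeness was the distance between log2(CPM + 1) values centred on their mean over the 3 libraries. The nearest were Naa50, an N-terminal acetyltransferase subunit, Eif2s2, a translation initiation factor subunit, Herpud1, a gene of endoplasmic reticulum protein degradation, Canx, a chaperone of that compartment, and Nars, a tRNA synthetase. Their distances were 0.0393, 0.0521, 0.0556, 0.0569 and 0.0636 log2 units. Canx stood at 3239 CPM in CD36+ cells, 2539.7 CPM in double-negative cells and 2208 CPM in PDPN+ cells. A similar profile was common, with 137 of the 459 genes within 0.5 log2 units of Bhlhe41.

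Bhlhe40, or DEC1, is the closest relative of Bhlhe41 in the set and lies on the plus strand of chromosome 6, from 108660629 to 108666925. It stood at 48.96 TPM in CD36+ cells, 67.4 TPM in double-negative cells and 38.9 TPM in PDPN+ cells. Bhlhe41 exceeded it 32.3-fold, 19.2-fold and 37.2-fold in TPM, in the same order. Of the summed TPM of the 10 genes, Bhlhe41 made up 88.5%, 86.4% and 89.4%. Unlike Bhlhe41, Bhlhe40 was highest in double-negative cells. By CPM it was 1.75-fold higher in CD36+ than in PDPN+ cells (1.69 to 1.81), 2.22-fold higher in double-negative than in PDPN+ cells (2.14 to 2.30) and 0.789 times as high in CD36+ as in double-negative cells (0.765 to 0.814). None of these directions turned under another scaling or by TPM. Its exons share 118 bases with 0610040F04Rik, an antisense gene with 278 counts in CD36+ cells, 0 in double-negative cells and 240 in PDPN+ cells, whose part in the Bhlhe40 values was not tested.

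**Figure D2:**
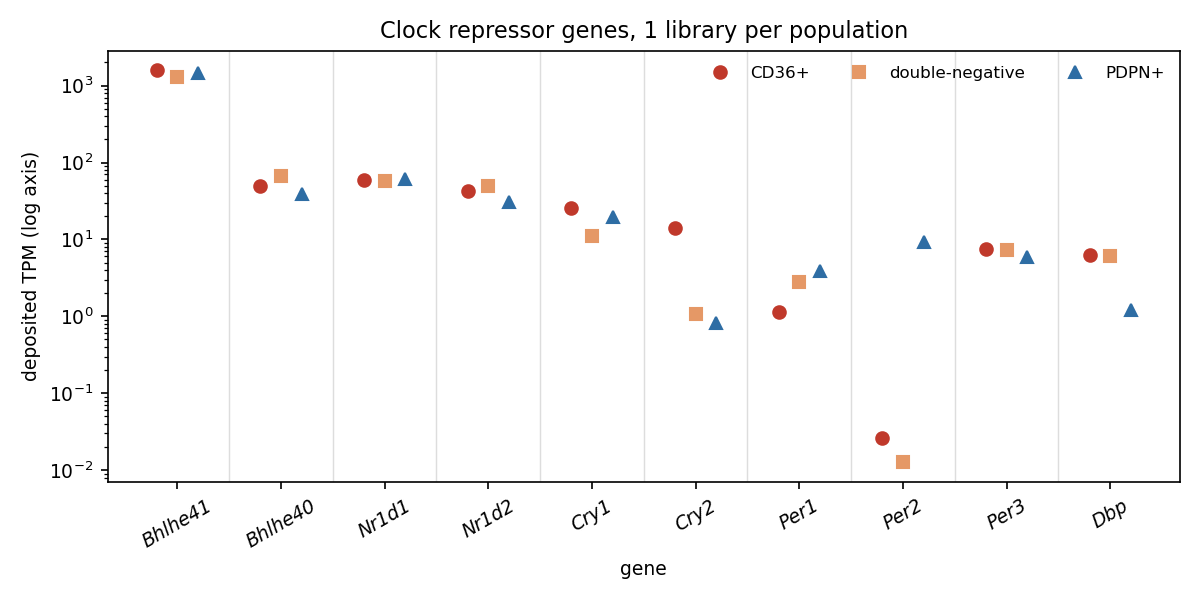
Deposited TPM (vertical log axis) of each of the 10 genes in the CD36+, double-negative and PDPN+ libraries, 1 point per library. Bhlhe41 stands above all other genes in every library, and Per2 is at 0.0263, 0.0127 and 9.19 TPM in the CD36+, double-negative and PDPN+ libraries.

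After Bhlhe41, the nuclear receptor genes and Bhlhe40 were the most abundant of the set per length. Nr1d1, which encodes the heme-binding repressor REV-ERB alpha, stood at 59.7 TPM in CD36+ cells, 58.1 TPM in double-negative cells and 61.7 TPM in PDPN+ cells. Its levels were close on this scale. Nr1d1 lies on the minus strand of chromosome 11, from 98767932 to 98775333. By CPM it stood at 137, 122 and 101, and its ratio was 1.36 between CD36+ and PDPN+ cells (1.31 to 1.40) and 1.21 between double-negative and PDPN+ cells (1.17 to 1.25), directions that turned by TPM. The 1.13-fold gap between CD36+ and double-negative cells turned under total counts. Exons of Nr1d1 share 263 bases with Thra, a thyroid hormone receptor gene on the opposite strand. Thra had 1119 counts in CD36+ cells, 208 in double-negative cells and 22 in PDPN+ cells. The sources used here do not say whether counting used strand, so reads of the shared bases cannot be told apart.

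Nr1d2, on the minus strand of chromosome 14 from 18204054 to 18239127, encodes the related receptor REV-ERB beta. It stood at 42.9 TPM in CD36+ cells, 49.4 TPM in double-negative cells and 30.4 TPM in PDPN+ cells. It was lowest in PDPN+ cells on this scale and by CPM. By CPM it was 2.06-fold higher in CD36+ than in PDPN+ cells (1.996 to 2.13) and 1.75-fold higher in double-negative than in PDPN+ cells (1.69 to 1.81). Its ratio between CD36+ and double-negative cells was 1.18 by CPM and 0.868 by TPM, so that direction depended on the scale. The effective length that counts and TPM implied was 4471 bases in CD36+ cells, 3631 in double-negative cells and 4295 in PDPN+ cells, so the mix of transcripts was not assigned alike.

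The Period genes encode the subunits that carry the cryptochromes. Per2 showed the widest gap of the set. It had 8 counts in CD36+ cells, 3 counts in double-negative cells and 2485 counts in PDPN+ cells. The PDPN+ library alone held an appreciable level, at 33.6 CPM, against 0.135 CPM in CD36+ cells and 0.0594 CPM in double-negative cells. Per2 was 248.6-fold lower in CD36+ than in PDPN+ cells (126 to 577). It was 565.5-fold lower in double-negative than in PDPN+ cells (193 to 2744), a ratio that rests on 3 counts. Between the CD36+ and double-negative libraries its ratio was 2.27, with an interval of 0.546 to 13.3 that holds 1, so no difference was detectable at this depth. In every library the implied length matched Per2-201, of 5833 bases. Per2 lies on the minus strand of chromosome 1, from 91415982 to 91459324, and shares no exon bases with another annotated gene.

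Per1, an early gene of light and hormone response, was low in all 3 libraries. It lies on the plus strand of chromosome 11, from 69095217 to 69109960. It stood at 1.13 TPM in CD36+ cells, 2.77 TPM in double-negative cells and 3.90 TPM in PDPN+ cells. It was lowest in CD36+ cells, 2.46-fold lower than in PDPN+ cells (2.14 to 2.83) and 2.23-fold lower than in double-negative cells (1.92 to 2.60) by CPM. Per1 was 1.10-fold lower in double-negative than in PDPN+ cells, with an interval of 0.984 to 1.23 that holds 1, and the direction turned under upper quartile scaling.

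Per3 lies on the minus strand of chromosome 4, from 151003652 to 151044665. It stood at 7.54 TPM in CD36+ cells, 7.39 TPM in double-negative cells and 5.89 TPM in PDPN+ cells. By CPM it was 1.96-fold higher in CD36+ than in PDPN+ cells (1.82 to 2.11) and 1.68-fold higher in double-negative than in PDPN+ cells (1.55 to 1.82). By TPM those ratios were 1.28 and 1.25. The implied effective length was 4507 bases in CD36+ cells, 4350 in double-negative cells and 4143 in PDPN+ cells. The longest transcript, Per3-201, has 5999 bases, so part of the signal was assigned to shorter ones. Per3 was lowest in PDPN+ cells, where Per2 was highest.

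The cryptochromes are the main inhibitors of CLOCK and BMAL1. Cry1 lies on chromosome 10, from 85131700 to 85185064, and Cry2 on chromosome 2, from 92403646 to 92434043, both on the minus strand. Cry1 stood at 25.8 TPM in CD36+ cells, 11.2 TPM in double-negative cells and 19.3 TPM in PDPN+ cells. It was highest in CD36+ cells and lowest in double-negative cells. By CPM it was 1.87-fold higher in CD36+ than in PDPN+ cells (1.78 to 1.97), 1.35-fold lower in double-negative than in PDPN+ cells (1.26 to 1.44) and 2.53-fold higher in CD36+ than in double-negative cells (2.37 to 2.69). No direction of Cry1 turned under another scaling or by TPM.

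Cry2 was low, and highest in the CD36+ library. It had 728 counts in CD36+ cells, 168 in double-negative cells and 151 in PDPN+ cells, or 12.3, 3.33 and 2.04 CPM. It was 6.02-fold higher in CD36+ than in PDPN+ cells (5.05 to 7.23) and 3.70-fold higher in CD36+ than in double-negative cells (3.12 to 4.40). By TPM these ratios were 16.8 and 13.2, since Cry2 stood at 13.9 TPM in CD36+ cells, 1.06 TPM in double-negative cells and 0.829 TPM in PDPN+ cells. The implied effective length was 971 bases in CD36+ cells, against 3797 and 3790 bases in the double-negative and PDPN+ libraries. In those 2 libraries it matched the longest transcript, Cry2-201, of 3976 bases, and in CD36+ cells part of the signal was assigned to shorter ones. D930015M05Rik, on the opposite strand, shares 295 exon bases with Cry2 and had 83 counts in CD36+ cells and 0 in the double-negative and PDPN+ libraries. The part of these reads in the Cry2 value was not tested.

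Dbp, a clock output that encodes a D-box activator, was low and lowest in PDPN+ cells. It lies on the plus strand of chromosome 7, from 45705088 to 45710203. It had 430 counts in CD36+ cells, 261 in double-negative cells and 56 in PDPN+ cells. That was 7.26, 5.17 and 0.757 CPM. It was 9.59-fold higher in CD36+ than in PDPN+ cells (7.25 to 12.9) and 6.83-fold higher in double-negative than in PDPN+ cells (5.10 to 9.28). By TPM the ratios were 5.20 and 5.07. The implied effective length was 1267 bases in CD36+ cells, 1016 in double-negative cells and 970 in PDPN+ cells, so the mix of transcripts was not assigned alike. Dbp and Per3 were both lowest in PDPN+ cells, Dbp by the wider margin. Exons of Dbp share 539 bases with Sphk2, a lipid kinase gene on the opposite strand that had 2 counts in CD36+ cells, 0 in double-negative cells and 72 in PDPN+ cells, and the part of these reads in the Dbp values was not tested.

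**Figure D3:**
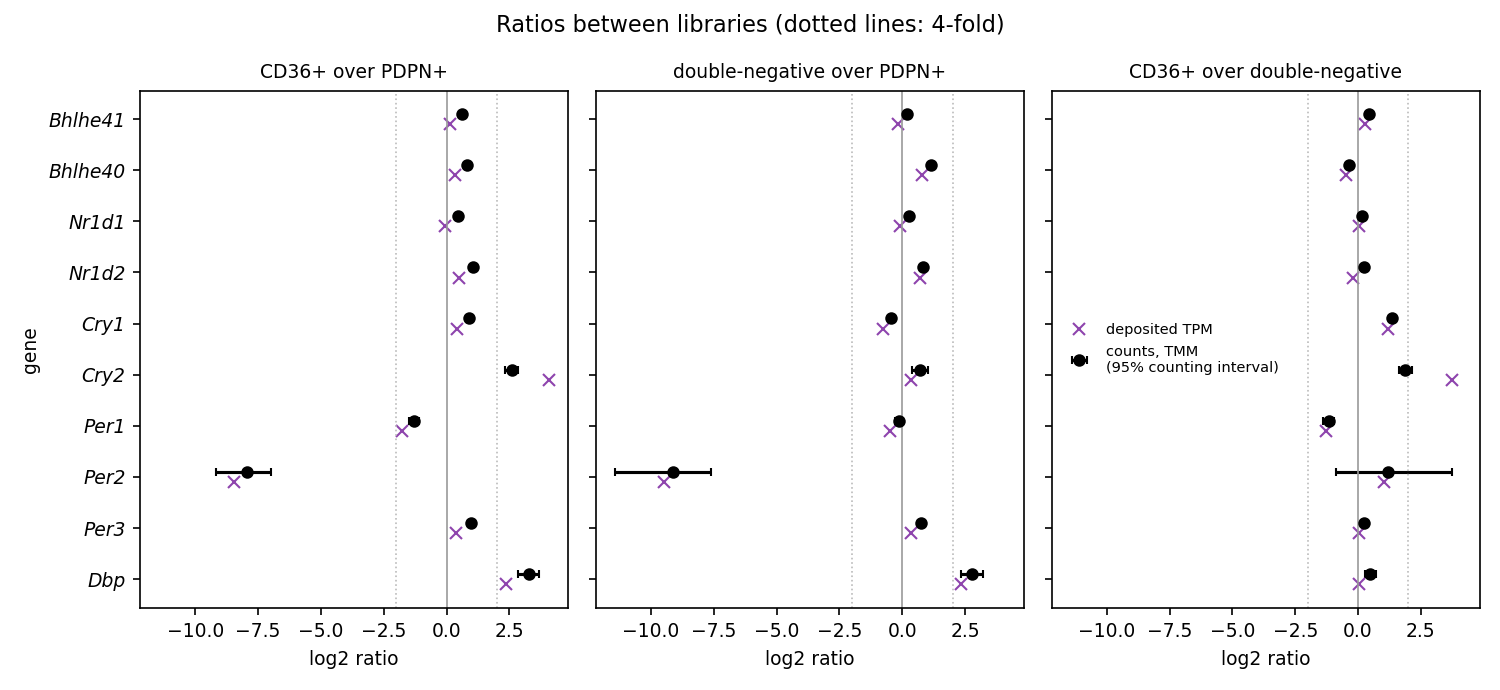
Log2 ratio between libraries for each of the 10 genes in 3 panels, CD36+ over PDPN+, double-negative over PDPN+ and CD36+ over double-negative. Black points are ratios of TMM-scaled counts with 95% counting intervals, and crosses are ratios of deposited TPM. Per2 lies far to the left in both panels with the PDPN+ library, and Dbp to the right in them, while the Bhlhe41 and Nr1d1 crosses for double-negative over PDPN+, the Nr1d1 cross for CD36+ over PDPN+ and the Nr1d2 cross for CD36+ over double-negative lie on the other side of 0 from their points.

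A gene was called apart where its CPM differed by 4-fold or more with 10 CPM or more on the higher side. For CD36+ over PDPN+, 1 of the 10 genes was called higher, Cry2, and 1 lower, Per2. Cry2 stood at 12.3 CPM in CD36+ cells, close to the minimum. A call needs 10 CPM in either library, which 9 of the 10 genes reached for CD36+ over PDPN+, 8 for double-negative over PDPN+ and 7 for CD36+ over double-negative. Of all 9387 genes with at least 10 CPM in either library, 15.1% were called higher and 17.6% lower. In the double-negative over PDPN+ comparison, 0 were called higher and 1 lower, Per2, against 15.0% and 19.3% of 9515 genes. In the CD36+ over double-negative comparison, 0 of the 10 were called in either direction, against 12.3% higher and 12.0% lower of 8968 genes. These counts are near the background or below it. Dbp passed the fold and missed the level in both comparisons with the PDPN+ library. Each pair of comparisons shares a library, and none is independent of the others.

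At a 2-fold limit the background was wider. For CD36+ over PDPN+, 2 genes were higher, Cry2 and Nr1d2, and 2 lower, Per1 and Per2, against 25.3% and 28.1% of all genes. In the double-negative over PDPN+ comparison 1 was higher, Bhlhe40, and 1 lower, Per2, against 25.4% and 30.2%. By TPM, Nr1d2 was 1.41-fold higher in CD36+ and Bhlhe40 1.73-fold higher in double-negative than in PDPN+ cells, both short of 2-fold. For CD36+ over double-negative, 2 were higher, Cry1 and Cry2, and 0 lower, against 23.0% and 21.0%. Per1 was 2.23-fold lower there and narrowly missed the level, at 9.98 CPM in double-negative cells. The median log2 ratio of the 10 genes was 0.86, 0.48 and 0.33 in these comparisons, beside -0.02, -0.11 and 0.11 over all genes with at least 10 CPM. The first medians include genes of the set under 10 CPM, such as Dbp, so the 2 sets are not filtered alike.

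The other clock genes were taken from lists of 23 genes in all. Their 4-fold counts, here and below, stand beside the shares of all genes with at least 10 CPM in either library. For CD36+ over PDPN+ those shares were 15.1% higher and 17.6% lower. They were 15.0% and 19.3% for double-negative over PDPN+, and 12.3% and 12.0% for CD36+ over double-negative. Among the 4 activators, Arntl was 5.33-fold lower in CD36+ than in PDPN+ cells (4.84 to 5.89) and 5.20-fold lower in double-negative than in PDPN+ cells (4.69 to 5.78). It stood at 7.94 CPM in CD36+ cells, 8.14 CPM in double-negative cells and 42.3 CPM in PDPN+ cells. Clock was lower by 2.51-fold and 2.24-fold in the same comparisons, at 71.5, 80.3 and 180 CPM in the CD36+, double-negative and PDPN+ libraries. Arntl2, a paralog of Arntl, stood at 6.22, 14.9 and 17.7 CPM, and Npas2, a paralog of Clock, at 2.43, 0.218 and 0.879 CPM. At 4-fold, 1 of the 4 activators was lower and 0 higher in each comparison with the PDPN+ library, and 0 were apart between CD36+ and double-negative cells. The PDPN+ library held the highest Arntl and Clock together with the highest Per2 and the lowest Dbp.

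The ROR receptors activate Arntl through the sites that NR1D1 and NR1D2 occupy, and Nfil3 encodes a repressor at D-boxes. Rora stood at 22.1 CPM in CD36+ cells, 62.3 CPM in double-negative cells and 5.15 CPM in PDPN+ cells. It was 4.29-fold higher in CD36+ (3.82 to 4.82) and 12.1-fold higher in double-negative than in PDPN+ cells (10.9 to 13.5), ratios that were 2.08 and 5.73 by TPM, where the CD36+ call ends. Nfil3 stood at 113, 55.3 and 88.8 CPM. At 4-fold, 1 of the 3 genes of this list, Rora, was higher and 0 lower in each comparison with the PDPN+ library, and 0 were apart between CD36+ and double-negative cells.

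Of the 4 further outputs and repressors, Ciart, which encodes a repressor of CLOCK and BMAL1, stood at 62.7 TPM in CD36+ cells, 83.3 TPM in double-negative cells and 75.5 TPM in PDPN+ cells. By CPM it stood at 58.4, 73.0 and 37.5, so its order between CD36+ and PDPN+ cells turned between the scales. Cipc, another inhibitor of CLOCK, had 3.73 CPM in CD36+ cells, 0.0990 CPM in double-negative cells and 22.04 CPM in PDPN+ cells. It was 5.90-fold lower in CD36+ (5.13 to 6.83) and 223-fold lower in double-negative than in PDPN+ cells (95.2 to 686). The gap of double-negative cells rests on 5 counts there and was 25.9-fold by TPM. Tef stood at 17.6, 23.6 and 11.0 CPM. At 4-fold, 1 of the 4 was lower and 0 higher in each comparison with the PDPN+ library, and 0 were apart between CD36+ and double-negative cells.

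The 12 kinases, ligases and cofactors act on the clock proteins. In the CD36+ over PDPN+ comparison 1 was higher at 4-fold, Timeless, and 2 lower, Btrc and Usp2. In the double-negative over PDPN+ comparison 0 were higher and 1 lower, Usp2. In the CD36+ over double-negative comparison 1 was higher, Timeless, and 1 lower, Btrc. Usp2, a deubiquitinase gene, stood at 0.236 CPM in CD36+ cells, 7.11 CPM in double-negative cells and 72.1 CPM in PDPN+ cells. Timeless, a replication fork gene related to a fly clock gene, stood at 40.9, 1.47 and 4.07 CPM in the same order. It was 10.04-fold higher in CD36+ than in PDPN+ cells by CPM and 2.63-fold by TPM, which ends that call, and 27.9-fold higher in CD36+ than in double-negative cells by CPM and 5.20-fold by TPM. Usp2 was 305-fold lower in CD36+ than in PDPN+ cells by CPM and 122-fold by TPM, and 10.1-fold lower in double-negative than in PDPN+ cells by CPM and 4.28-fold by TPM. Btrc was 34.8-fold lower in CD36+ than in PDPN+ cells by CPM and 16.7-fold by TPM. Gsk3b, a kinase gene, and Ncor1, a corepressor that NR1D1 recruits, had the highest mean CPM of the list, at 225, 164 and 346 CPM for Gsk3b and 141.5, 118 and 182 CPM for Ncor1.

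**Figure D4:**
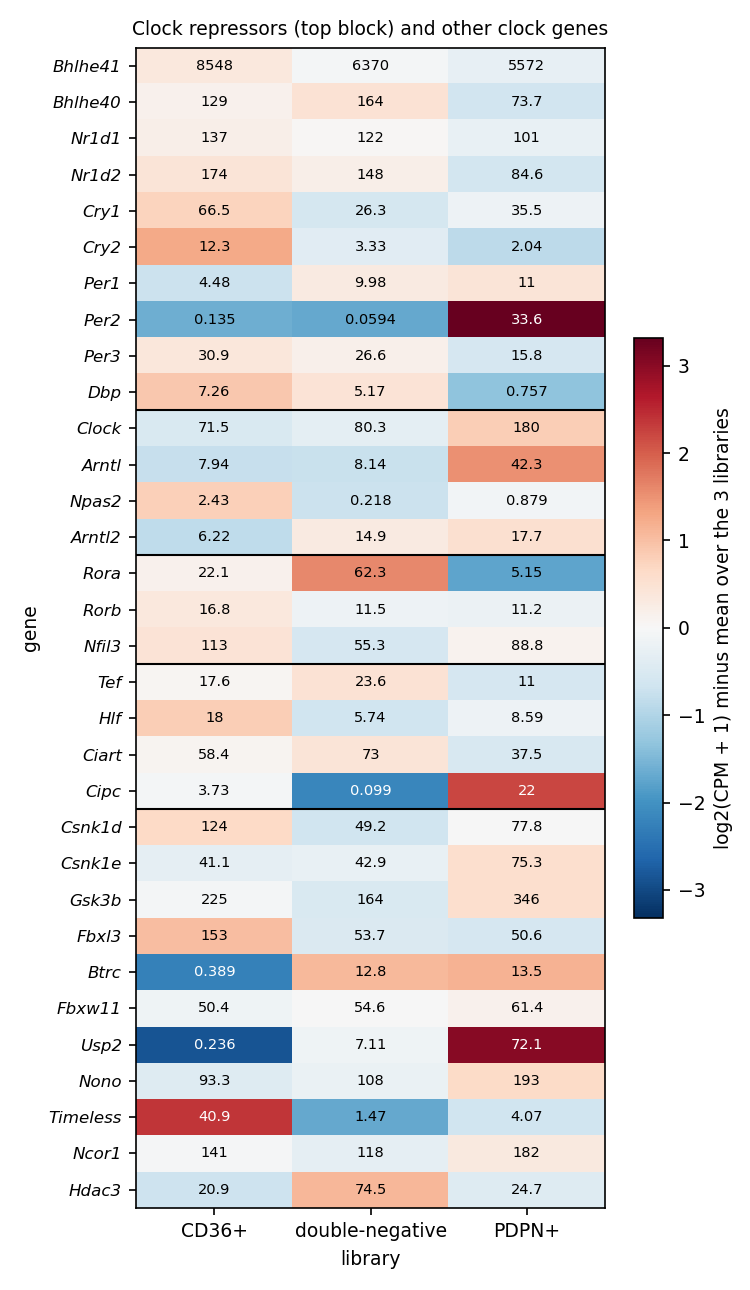
CPM (numbers) of the 10 genes (top block) and of other clock genes that reached 1 CPM somewhere, in blocks for activators, ROR receptors with Nfil3, further outputs and repressors, and kinases, ligases and cofactors. Colour gives log2(CPM + 1) minus the mean over the CD36+, double-negative and PDPN+ libraries, and Per2, Usp2, Cipc and Arntl are the reddest shown in PDPN+ cells, at 33.6, 72.1, 22.04 and 42.3 CPM.

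Some clock genes, Per1 among them, are also early response genes, so genes that respond to tissue digestion were read beside them. Their 15 genes summed to 3593 CPM in CD36+ cells, 2236 CPM in double-negative cells and 1517 CPM in PDPN+ cells. At 4-fold, 5 were higher and 0 lower in CD36+ than in PDPN+ cells, against 15.1% and 17.6% of all genes. In double-negative against PDPN+ cells 4 were higher and 0 lower, beside 15.0% and 19.3%. Between the CD36+ and double-negative libraries 0 were apart, against 12.3% higher and 12.0% lower. Atf3, a stress-induced transcription factor gene, stood at 229 CPM in CD36+ cells, 109 CPM in double-negative cells and 2.37 CPM in PDPN+ cells. Dusp1, a phosphatase gene, stood at 1008, 586 and 611 CPM. The list did not move as 1. The early gene Fos stood at 92.9, 153 and 150 CPM and Fosb at 15.9, 21.4 and 19.5 CPM, both lowest in CD36+ cells, as Per1 was. Other genes of the list went the other way. Egr1, Ier2, Junb, Nr4a1 and Zfp36 were highest in CD36+ cells by CPM, with Egr1 at 168, 45.0 and 64.4 CPM. Hspa1b and Socs3 were highest in double-negative cells. Of the genes 4-fold higher, Jun, Ier3 and Hspa1a in CD36+ cells and Socs3 in double-negative cells were 3.18, 3.70, 3.99 and 3.42 times the PDPN+ level by TPM. The part of digestion in the clock gene values was not tested.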

How the data were processed

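Estimated counts and TPM (corrected for transcript length) per gene were deposited by the authors for 3 libraries. Salmon 0.9.1 and mm10 were used, per the submitters' processing notes. Per the labels' protocols, a low-input kit or a stranded kit with removal of ribosomal RNA was used. The sources used here do not give the kit of each library, the annotation release or the strand setting, and library chemistry cannot be told apart from population.

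The deposited estimated counts were rounded. Symbols and coordinates came from GENCODE M21 by identifier without version (52566 of 52661 matched; the rest held at most 0.00811% of a library's counts). TMM factors over the 3 libraries came from edgeR 4.0.16 in R 4.3.3, and log2 ratios used a prior count of 2. A floor of 3 counts is 0.0507, 0.0594 and 0.0406 CPM in the CD36+, double-negative and PDPN+ libraries. No molecular identifiers are named, so some reads may be PCR copies.

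The deposited length columns were not used as lengths. For genes with 1 annotated transcript and at least 100 counts, counts over TPM gave a length within 1% of the deposited effective length in at least 99.9% of cases. For genes with more transcripts, the implied length was a median of 3.57 to 3.62 times the deposited one. For Bhlhe41, with 3 annotated transcripts, it was 3.00 times.

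The gene set and 14 lists (8 pathways, 6 cell types) were chosen with earlier results of these data known. The rule allowed naming the 10 genes, the 5 most like Bhlhe41, and list genes 4-fold apart or among the 2 most abundant, of which not all are named. Arntl2, Npas2, Fos, Fosb, Hspa1b, Egr1, Ier2, Junb, Nr4a1, Zfp36, Kdm3a and Slc2a1 lie outside it and were named after their values were seen. 1 list gene was left out and is not reported here. Alternatives were scaling by total counts, upper quartile or median of ratios, the deposited TPM, a prior count of 0.5, a minimum of 1 CPM and a 2-fold limit. Python 3.11.15, numpy 2.4.6, pandas 2.3.3, scipy 1.17.1 and matplotlib 3.10.9 were used.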

Additional observations from a re-analysis of the deposited data

How the results depend on the processing

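Scaling set the sign and size of the small ratios. Relative to TMM, total counts moved the median log2 ratio of all genes by -0.40 (CD36+ over PDPN+), -0.23 (double-negative over PDPN+) and -0.17 (CD36+ over double-negative), upper quartile by 0.27, 0.28 and -0.01, and the deposited TPM by -0.49, -0.36 and -0.13. In the same order of comparisons, the log2 ratio of Bhlhe41 was 0.62, 0.19 and 0.42 with TMM, 0.21, -0.037 and 0.25 with total counts, 0.89, 0.48 and 0.41 with upper quartile, and 0.13, -0.16 and 0.29 by TPM. With median of ratios it was 0.18 (double-negative over PDPN+) and 0.44 (CD36+ over double-negative). The number of the 10 genes at least 4-fold apart was 2, 1 and 0 with TMM, and 1, 0 and 1 by TPM with a minimum of 10 TPM, where Per2 missed the minimum. It was 4, 2 and 2 at 2-fold. With a minimum of 1 CPM it was 3, 2 and 0, where Dbp entered both comparisons with PDPN+ cells. Of the 27 log2 ratios of the other 9 genes, 23 left their counting interval by TPM, 19 with total counts and 12 with upper quartile, and 0 with median of ratios or a prior count of 0.5. No call changed sign under an alternative run here. The cause was not tested. No paired analysis was possible because each population had 1 library and no test was made. With 8 and 3 counts of Per2, depth limits its comparison between CD36+ and double-negative cells.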

Other observations

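BHLHE40 and BHLHE41 belong to the same structural family as the Hes and Hey repressors, which are targets of Notch signalling. Of 10 Hes and Hey genes, 9 were under 1 CPM in CD36+ cells, 8 in double-negative cells and 7 in PDPN+ cells. The number that reached 10 CPM was 1, 0 and 1 in that order, beside 7437, 7543 and 7872 of all 52661 genes. Hes1 stood at 37.7 CPM in CD36+ cells, 3.09 CPM in double-negative cells and 5.50 CPM in PDPN+ cells. In CD36+ cells it was 6.86-fold higher than in PDPN+ cells (6.17 to 7.64) and 12.2-fold higher than in double-negative cells (10.4 to 14.5). Hey1 had 0 counts in CD36+ cells, 2 counts in double-negative cells and 20.9 CPM in PDPN+ cells. It was at least 412-fold lower in CD36+ than in PDPN+ cells, against a floor of 3 counts in CD36+ cells. At 4-fold, 1 of the 10 was higher (Hes1) and 1 lower (Hey1) for CD36+ over PDPN+, against 15.1% and 17.6% of all genes. For double-negative over PDPN+, 0 were higher and 1 lower (Hey1), against 15.0% and 19.3%. For CD36+ over double-negative, 1 was higher (Hes1) and 0 lower, against 12.3% and 12.0%.

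Both BHLHE genes are also known to respond to hypoxia. Of 14 hypoxia response genes, 2 were higher at 4-fold (Bnip3 and Ndrg1) and 1 lower (Vegfa) in CD36+ than in PDPN+ cells. In the double-negative over PDPN+ comparison 4 were higher (Adm, Ankrd37, Bnip3 and Pdk1) and 1 lower (Vegfa). In the CD36+ over double-negative comparison 0 were higher and 3 lower (Adm, Ankrd37 and Pdk1). Over all genes, 15.1% were higher and 17.6% lower for CD36+ over PDPN+. The shares were 15.0% and 19.3% for double-negative over PDPN+, and 12.3% and 12.0% for CD36+ over double-negative. They also stand beside the glucocorticoid counts below. By TPM, Ndrg1 was 3.34-fold higher in CD36+ than in PDPN+ cells and Pdk1 2.23-fold lower in CD36+ than in double-negative cells, both short of 4-fold. Other genes of the list passed 4-fold by TPM and not by CPM. Kdm3a was 6.69-fold higher in CD36+ and 8.92-fold higher in double-negative than in PDPN+ cells by TPM, against 3.24 and 3.55 by CPM. Slc2a1 was 5.32-fold and 4.80-fold lower in the same comparisons by TPM, against 3.90 and 3.91 by CPM. Adm stood at 7.18 CPM in CD36+ cells, 57.0 CPM in double-negative cells and 1.001 CPM in PDPN+ cells. Of 8 glucocorticoid response genes, 1 was higher (Fkbp5) and 0 lower in CD36+ than in PDPN+ cells. In the double-negative over PDPN+ comparison 1 was higher (Fkbp5) and 1 lower (Tsc22d3), and in the CD36+ over double-negative comparison 1 was higher (Tsc22d3) and 0 lower. Fkbp5 stood at 66.8 CPM in CD36+ cells, 72.6 CPM in double-negative cells and 14.2 CPM in PDPN+ cells. By TPM it was 3.35-fold higher in CD36+ and 3.99-fold higher in double-negative than in PDPN+ cells, both short of 4-fold. In these comparisons the log2 ratios of all genes with at least 10 CPM also moved by a median of -0.49 and -0.36 by TPM.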
